A study of Homo sapiens with 6 samples.

Results

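A cleavage and polyadenylation site with the type code Is lies inside an intron of its gene, as far as the code can be checked, and 249 of the 4903 sites in the deposited table carry it (5.08%). All rows with that code were taken, whatever polyadenylation signal the table names for them. They belong to 226 of 3118 listed genes. Most of these genes, 204, hold 1 such site, 21 hold 2, and CFLAR, a regulator of caspase-8 in death receptor signalling, holds 3. By the table's biotype 234 of the sites are in mRNA genes and 15 in lncRNA genes. The study used LNCaP, a human prostate cancer cell line that responds to androgen, and mapped RNA 3' ends by 3'READS, which sequences the end of polyadenylated RNA and so places the cleavage site. The groups were siSAM68 (silencing of KHDRBS1, which encodes the RNA-binding protein Sam68), siXRN2 (silencing of the nuclear 5'-to-3' exonuclease XRN2) and siCTRL (scrambled siRNA), with 2 biological replicates each. All 3 groups received 50 nM siRNA by repeated lipofection and were collected after 48 hours. The values are site usage, the percent of a gene's reads that end at the site, in each library.

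Most genes can end their RNA at more than one place. Where cleavage happens inside an intron before that intron has been removed, the transcript loses all downstream exons, and its protein, if one is made, has another C-terminus. Such ends come in a pair of kinds: the intron can hold a separate last exon that is skipped in the full-length mRNA, or an internal exon can run on past its 5' splice site into the intron. Splicing factors, U1 snRNP and the cleavage machinery compete over these sites, and Sam68, a STAR-family protein, is known to act on both splicing and 3' end choice. XRN2 degrades the RNA that remains on the polymerase after cleavage, as part of transcription termination.

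No source used here defines the code Is, so it was set against GENCODE v29 transcripts by comparing distances to a 3' UTR site listed for the same gene. Of 249 sites, 111 had such a 3' UTR site and a gene found in GENCODE. Of these, 37 (33.3%) fell on an annotated transcript end within 24 bases. In 32 cases the annotated end belonged to the same gene, with a median difference of 2 bases. The last exon of that transcript overlapped no internal exon of the gene in 27 of the 32 (84.4%) and extended an internal exon in 5, among them C19orf28, NISCH, TROAP and ZNF527. For the other intronic code, Ic, 72 sites matched an end of their own gene. There the last exon overlapped no internal exon in 3 (4.2%) and extended one in 65 (90.3%). The Is sites that could be matched therefore mostly end a separate, skipped last exon, and the matched Ic sites mostly end an extended exon. The other 5 matched Is sites fell on the end of another annotated gene. The site listed for the readthrough gene NME1-NME2 was at an end of NME1, that of DNAJC25-GNG10 at an end of DNAJC25, and that of MATR3 at an end of the RNA SNHG4.

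**Figure D1:**
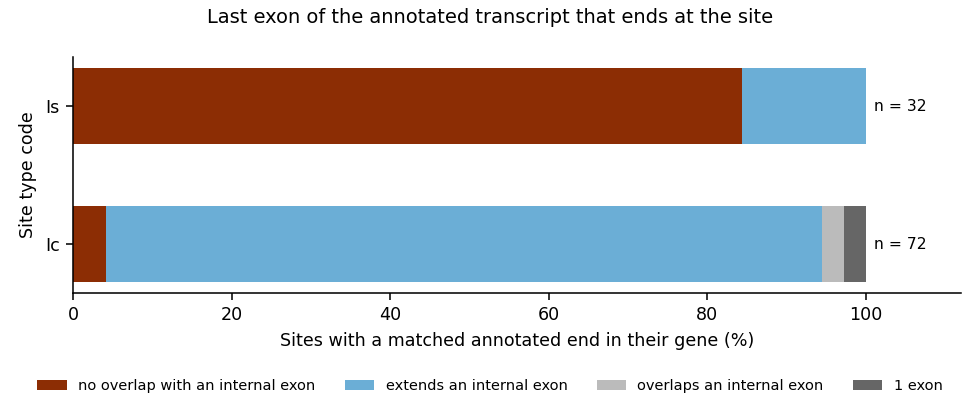
Each bar gives, for the sites of 1 type code that matched an annotated transcript end of their own gene, the percent whose last exon falls in each class (GENCODE v29). Of 32 Is sites, 84.4% end a last exon that overlaps no internal exon, and of 72 Ic sites 90.3% end an extended internal exon.

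The last 30 bases before the annotated end are printed for matched sites whose usage is described below, with the copy of the signal named by the table that lies nearest the end in capitals. They are transcript sequences from GENCODE v29, 5' to 3', in GRCh38 coordinates. KLHL7 (chr7:23126020-23126049, plus strand) and ZCCHC10 (chr5:133019038-133019067, minus strand) passed the test after siSAM68. PDE9A (chr21:42701160-42701189, plus strand), PRKACB (chr1:84205268-84205297, plus strand), PPP1R7 (chr2:241167145-241167174, plus strand), C3orf23 (chr3:44359775-44359804, plus strand) and NSD1 (chr5:177137375-177137404, plus strand) did not pass it and are described for their values. NME1-NME2 (chr17:51162006-51162035, plus strand) is the end that belongs to NME1. The C3orf23 stretch holds another AATAAA further upstream, and which copy is used was not tested.
KLHL7: ataatAATAAAatagaacaactttaacaat
ZCCHC10: cgtatttataacAATAAAaaacaaactcca
PDE9A: aatatgaagtacttAATAAAtactgataaa
PRKACB: cccAATAAAtcatctgtttcaaaactcaaa
PPP1R7: aagacaAATAAAagactttttctcattcaa
C3orf23: gtaataaaccataatggtgAATAAAacagc
NSD1: ctgagttcATTAAAcattcgctttacctta
NME1-NME2: accatctgATTAAAatgcttcctcccagca
In the 33 matched ends that were read, those with a named signal of AATAAA or ATTAAA and not on an unread chromosome, that signal was present within the last 40 bases in 33 and within the last 30 bases in 30.

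Over all 249 Is sites the table names the canonical signal AATAAA for 148 (59.4%), its common variant ATTAAA for 37 (14.9%) and another signal for 45 (18.1%). It names an A-rich sequence for 6 (2.4%) and no signal for 13 (5.2%). Among Ic sites 54.6% had AATAAA and 6.3% an A-rich sequence, and among all listed sites 53.5% and 3.6% did. Sites in the last position of a 3' UTR, code L, had AATAAA in 67.4%. A listed 3' UTR site of the same gene was available for 114 Is sites, and all 114 lay upstream of it. The median distance was 31261 bases, with quartiles of 10876 and 70970 and a range of 1039 to 561656. For 314 Ic sites it was 23339 bases. In 108 of the 226 genes Is sites are the only ones listed, and in 20 an Ic site is listed too. In addition, 11 Is sites in 10 genes are listed under readthrough transcripts that join neighbouring genes, such as PPAN-P2RY11, so a site there can be the ordinary end of the upstream gene.

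Usage of Is sites was low and wide. The median usage was 10.0% and 10.0% in the siSAM68 libraries, 8.57% and 10.0% in the siXRN2 libraries and 12.5% and 11.7% in the siCTRL libraries, whereas L sites had medians of 46.8% to 47.6% in the knockdown libraries and 42.9% and 44.4% in siCTRL. The mean over a group's libraries was above 50% for 34 Is sites in siSAM68, 27 in siXRN2 and 37 in siCTRL. At the other end, 107 of 249 sites were above 0 in all 6 libraries. Sites listed at 0 numbered 41 and 45 in siSAM68, 56 and 17 in siXRN2, and 73 and 54 in siCTRL. Reads in the genes of the expression table, a measure of depth, numbered 674072 and 788203 in siSAM68, 597911 and 1599559 in siXRN2, and 244708 and 447363 in siCTRL. The deepest library, siXRN2 replicate 2, had the fewest sites at 0 and the shallowest, siCTRL replicate 1, the most. In this bulk RNA a 0 is an absence of reads at the depth of that gene, and the part of depth in the comparisons with siCTRL was not tested.

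**Figure D2:**
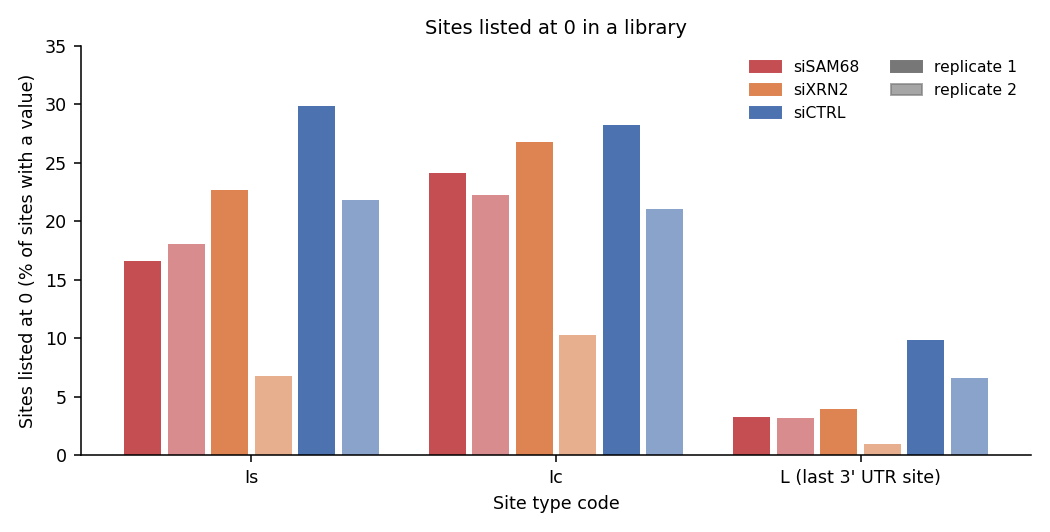
Bars give the percent of sites listed at 0 in each library, among sites with a value, for the codes Is, Ic and L (last 3' UTR site), with siSAM68 and siXRN2 left of siCTRL and replicate 2 in a lighter shade. Among Is sites the share was 16.6% and 18.1% in siSAM68, 22.7% and 6.8% in siXRN2 and 29.9% and 21.8% in siCTRL.

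The libraries had the profile of luminal prostate cells. Of 10 markers of that type 9 were in the expression table, led by KLK3 at 493 to 1421 RPM (reads of a gene scaled to library size) over the 6 libraries, while the 14 markers of stromal, immune, endothelial, neuroendocrine and basal cells were not in it. KHDRBS1 stood at 53.8 and 27.5 RPM in siSAM68, at 895 and 567 RPM in siXRN2 and at 601 and 741 RPM in siCTRL. Its level was low in both siSAM68 libraries and in no other. The level of XRN2 was not analysed here. The listed sites are a selected set: by the authors' deposited score, 180 of 249 Is sites (72.3%) and 81.1% of all sites in the authors' deposited table have a value of 1.3 or more in size in at least 1 comparison with siCTRL. Adjusted p-values hold for that set and can be too small, since the same libraries chose it.

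Individual Is sites passed the test in both directions after siSAM68. Of 245 Is sites tested, 43 in 41 genes passed the threshold of limma adjusted p under 0.05 (17.6%), 27 higher and 16 lower, where 14.7% of all 4860 tested sites did (8.68% higher and 5.99% lower). The share called was thus close to that background, in each direction as well. The median change of Is sites was -0.11 on the log2(percent + 1) scale, with 132 of 245 below 0, against -0.03 for all sites, -0.45 for Ic sites and 0.11 for L sites. Without siSAM68 replicate 2 the Is median was 0.00 and without siCTRL replicate 1 it was -0.30, so its distance from 0 depends on single libraries. Called sites carried AATAAA in 23 cases, 14 higher and 9 lower, of 145 tested with that signal.

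**Figure D3:**
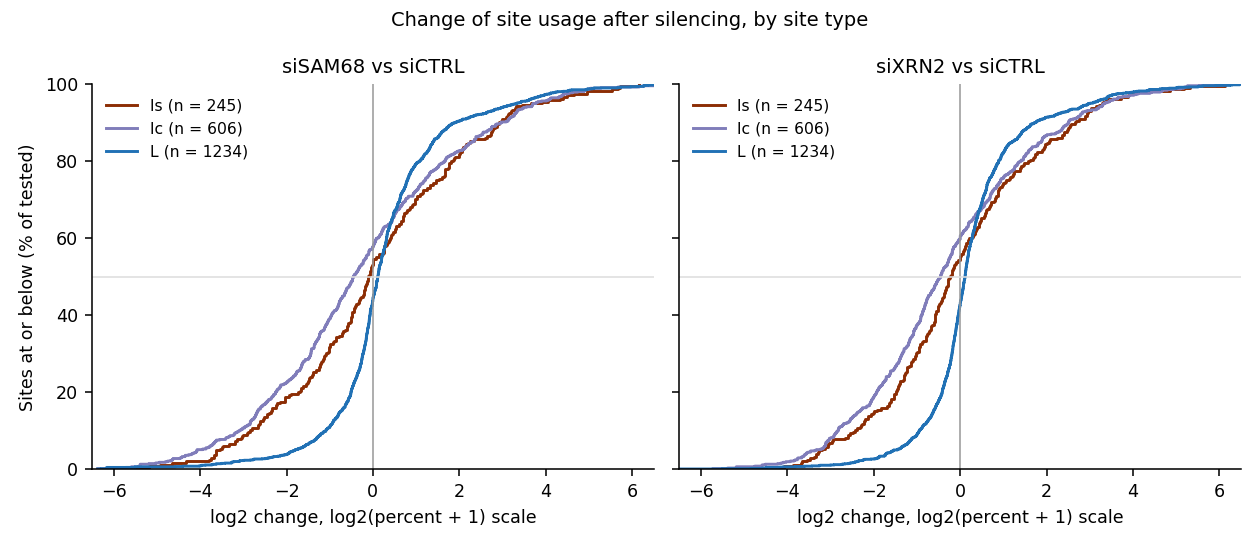
Curves give the percent of tested sites at or below each log2 change (log2(percent + 1) scale) for the codes Is, Ic and L, siSAM68 against siCTRL on the left and siXRN2 against siCTRL on the right. Medians after siSAM68 were -0.11 for Is, -0.45 for Ic and 0.11 for L, and after siXRN2 -0.23, -0.46 and 0.11.

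Of the 27 Is sites that were higher after siSAM68, 21 (77.8%) were listed at 0 in both siCTRL libraries, against 205 of 422 higher sites (48.6%) in the whole table. Only the 6 others allow a fold change. They were chosen for description after their values were seen. The 10 largest rises by the naming rule all started at 0 in siCTRL. Of the 16 lower sites, 7 were at 0 in both siSAM68 libraries. No Is site was called when either siSAM68 library was left out, and 7 were called without siCTRL replicate 1.

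KLHL7, which encodes a substrate adaptor of a cullin-3 ubiquitin ligase, has a pair of Is sites that moved in opposite directions. At its minor site (hg19 chromosome 7, position 23165669, the printed sequence) usage was 8.67% and 7.97% in siSAM68, 0.93% and 1.36% in siXRN2 and 1.14% and 0.79% in siCTRL. Only the siSAM68 libraries were high. The log2 change after siSAM68 was 2.25 (SE 0.47, limma adjusted p = 0.0449). At the major site further on (position 23168070), usage was 58.0% and 45.65% in siSAM68, 71.3% and 66.85% in siXRN2 and 80.68% and 80.95% in siCTRL. Usage was lowest in siSAM68 and highest in siCTRL, and no groups overlapped. The log2 change after siSAM68 was -0.64 (SE 0.13, adjusted p = 0.0424) and after siXRN2 -0.22 (adjusted p = 0.235). The first of its 3' UTR sites (position 23214923) had 16.67% and 21.01% in siSAM68 against 9.09% and 7.14% in siCTRL, and missed the threshold (adjusted p = 0.0677). KLHL7 had about 150 and 138 reads in siSAM68, 108 and 368 in siXRN2 and 88 and 126 in siCTRL. These are above the median of the genes with known reads in each library. The siSAM68 call held under 6 of 13 other settings at the minor site and under 5 of 14 at the major site.

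The other rises from a value above 0 were in MXD3, PPME1, RGS3, DLG5 and ZCCHC10. MXD3, a MAX-binding transcriptional repressor of the MAD family, ended mostly at its Is site, with 91.8% and 90.24% in siSAM68, 94.59% and 94.1% in siXRN2 and 64.29% and 75% in siCTRL. Both knockdown groups lay above siCTRL. The log2 change was 0.39 after siSAM68 (SE 0.08, limma adjusted p = 0.0455) and 0.44 after siXRN2 (adjusted p = 0.0519), and the Ic site of MXD3 fell, with 5.74% and 8.54% in siSAM68 against 35.71% and 22.5% in siCTRL (adjusted p = 0.0493). The Is and Ic sites share the gene's total, so this fall is not a separate observation. siCTRL replicate 1 held only about 14 MXD3 reads. RGS3, a regulator of G protein signalling, had 16.18% and 12.62% in siSAM68, 13.64% and 18.91% in siXRN2 and 1.96% and 1.18% in siCTRL. Its log2 change was 2.59 after siSAM68 (SE 0.40, limma adjusted p = 0.0294) and 2.75 after siXRN2 (SE 0.41, adjusted p = 0.0363).

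PPME1, the methylesterase that acts on protein phosphatase 2A, used its Is site at 18.97% and 13.75% in siSAM68, 6.12% and 10.94% in siXRN2 and 3.7% and 2.22% in siCTRL (log2 2.14, SE 0.47, limma adjusted p = 0.0471 after siSAM68). DLG5, a membrane scaffold protein, had 22.22% and 25.0% in siSAM68, 36.11% and 30.67% in siXRN2 and 7.69% and 2.86% in siCTRL (log2 2.09, adjusted p = 0.0494). ZCCHC10, a zinc finger gene, had 17.05% and 13.33% in siSAM68, 8.33% and 8.85% in siXRN2 and 0% and 2.33% in siCTRL (log2 3.14, adjusted p = 0.0463). In each of these genes the siXRN2 libraries also lay above both siCTRL libraries, without passing the test. Their siSAM68 calls held under 3 (PPME1), 4 (DLG5) and 4 (ZCCHC10) of 14 other settings. Those of MXD3 and RGS3 held under 6 and 8 of 14. Of these genes only MXD3 is in the expression table, so the reads of the others are not known.

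Among rises from 0, IQCD had the largest, with usage of 100% and 50% in siSAM68, 80% and 60% in siXRN2 and 0 in both siCTRL libraries (limma adjusted p = 0.00808 after siSAM68). PCNXL2 followed with 75% and 35.71% in siSAM68, 66.67% and 22.22% in siXRN2 and 0 in both siCTRL libraries. Neither gene is in the expression table, so the reads behind these percentages are not known and can be few. ERCC6, which encodes the transcription-coupled repair factor CSB, had 40% and 22.22% in siSAM68, 7.69% and 3.7% in siXRN2 and 0 in siCTRL (adjusted p = 0.0163 after siSAM68). The remaining rises among the 10 largest were in ZNF638, C6orf57, ARHGAP26, SLC26A1, PRKY, ENDOV (position 78404171) and MANEA, all at 0 in both siCTRL libraries and between 7.69% and 33.33% in the siSAM68 libraries.

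The depth of 4 such genes is known, MANEA, SNX7, TMEM135 and PCDH11Y, the last 3 taken up for that reason after their values were seen. MANEA, an endomannosidase of the Golgi, had 7.69% and 12.73% in siSAM68 against 0 and 0 in siCTRL, where it had 21 and 20 reads. If usage is counted over those reads, a 0 in both siCTRL libraries allows a usage of up to 7.32% (3 reads of the gene's total over the group, counting error only), and both siSAM68 values lay above it. For SNX7, a sorting nexin, the siSAM68 values of 12.5% and 6.35% lay on either side of the limit of 7.5%. For TMEM135 the siSAM68 values were 4.62% and 6.9% and the limit was 4.35%, and for PCDH11Y, a protocadherin, they were 8.16% and 9.52% and the limit was 6.38%. These limits pool both siCTRL libraries and leave out the counting error of the siSAM68 values. In single siCTRL libraries the limit was 14.29% and 15.0% for MANEA and 23.08% and 11.11% for SNX7. It was 16.67% and 5.88% for TMEM135 and 15.0% and 11.11% for PCDH11Y. No siSAM68 value lay above both single-library limits of its gene. In genes under 40 reads, usage gave whole reads at 89.1% and 81.0% of sites in the siCTRL libraries. In the siSAM68 libraries it did so at 72.8% and 68.1%, so all such limits are approximate. The part of depth in these 4 rises was not tested.

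Of the 16 Is sites that were lower after siSAM68, 9 had reads in siSAM68. The largest fall with reads in every library was in NCK1, an SH2 and SH3 adaptor that links receptors to actin. Its Is site (hg19 chromosome 3, position 136589878) had 5.66% and 3.08% in siSAM68, 8.82% and 20.97% in siXRN2 and 40% and 37.04% in siCTRL. All knockdown libraries lay below siCTRL. The log2 change after siSAM68 was -2.92 (SE 0.52, limma adjusted p = 0.0369) and after siXRN2 -1.43 (adjusted p = 0.120). Its main 3' UTR site (position 136667968) rose, with 84.91% and 83.08% in siSAM68 against 40% and 29.63% in siCTRL (log2 1.26, adjusted p = 0.0201). Sites of 1 gene share a total, so their opposite directions are not independent.

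EGFR, the epidermal growth factor receptor, used its Is site (hg19 chromosome 7, position 55154976) at 27.27% and 22.22% in siSAM68, 33.33% and 38.89% in siXRN2 and 70.0% and 55.56% in siCTRL. No groups overlapped. The log2 change after siSAM68 was -1.31 (SE 0.22, limma adjusted p = 0.0321) and after siXRN2 -0.78 (adjusted p = 0.0871). EGFR is not in the expression table, so the reads behind these percentages are not known. Values such as 70.0%, 55.56% and 22.22% are simple fractions, which few reads can give. The siSAM68 call of EGFR held under 7 of 14 other settings and that of NCK1 under 9 of 14. The table names an A-rich sequence and no canonical signal at the EGFR Is site. The only listed 3' UTR site, 120055 bases downstream, rose to 36.36% and 44.44% in siSAM68, against 10.0% and 11.11% in siCTRL (log2 1.84, adjusted p = 0.0379).

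TBCK, a TBC-domain protein, had 9.09% and 5.0% at its Is site in siSAM68, 20.0% and 38.98% in siXRN2 and 40% and 38.46% in siCTRL (log2 -2.37, SE 0.46, limma adjusted p = 0.0408 after siSAM68). ENDOV, the inosine-specific endonuclease V, had a fall at 1 Is site and a rise at the other. Its upstream site (position 78390930) had 3.45% and 1.85% in siSAM68, 14.29% and 12.36% in siXRN2 and 25.0% and 18.18% in siCTRL (adjusted p = 0.0294), and its downstream site (position 78404171) had 10.34% and 12.96%, 8.57% and 8.99%, and 0 and 0 in the same groups. PPM1B, a metal-dependent protein phosphatase, showed a small change between closely replicated values, with 61.22% and 63.89% in siSAM68, 74.0% and 80.14% in siXRN2 and 79.17% and 79.69% in siCTRL (log2 -0.34, SE 0.07, adjusted p = 0.0423). LYST, NTNG1 and SLC25A37 completed the falls. Among the falls with reads in siSAM68 only KLHL7 is in the expression table, so the depth of the others is not known and can be low. KLHL7, PPM1B, NTNG1 and SLC25A37 lie outside the naming rule and were chosen after their values were seen.

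CDADC1, CCDC122, LOC100133315, TMEM56-RWDD3, LRRC27, ERAP1 and ASPH were at 0 in both siSAM68 libraries. CCDC122 had 25.0% and 50.0% in siCTRL and CDADC1 40% and 50.0%. ERAP1, the aminopeptidase that trims peptides in the endoplasmic reticulum, had 14.29% and 11.76% in siCTRL, from about 9 and 17 reads. In siSAM68 it had 46 and 75 reads, at which a 0 over both libraries allows up to 2.48%, below both siCTRL values. ASPH, an aspartate hydroxylase, had 9.09% and 5.66% in siCTRL, and its 117 and 186 reads in siSAM68 allow up to 0.99%. The siCTRL percentages of ERAP1 and ASPH rest on about 3 reads or fewer in each library. Their limits, as for MANEA, assume that usage is counted over the gene's reads and are approximate.

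**Figure D4:**
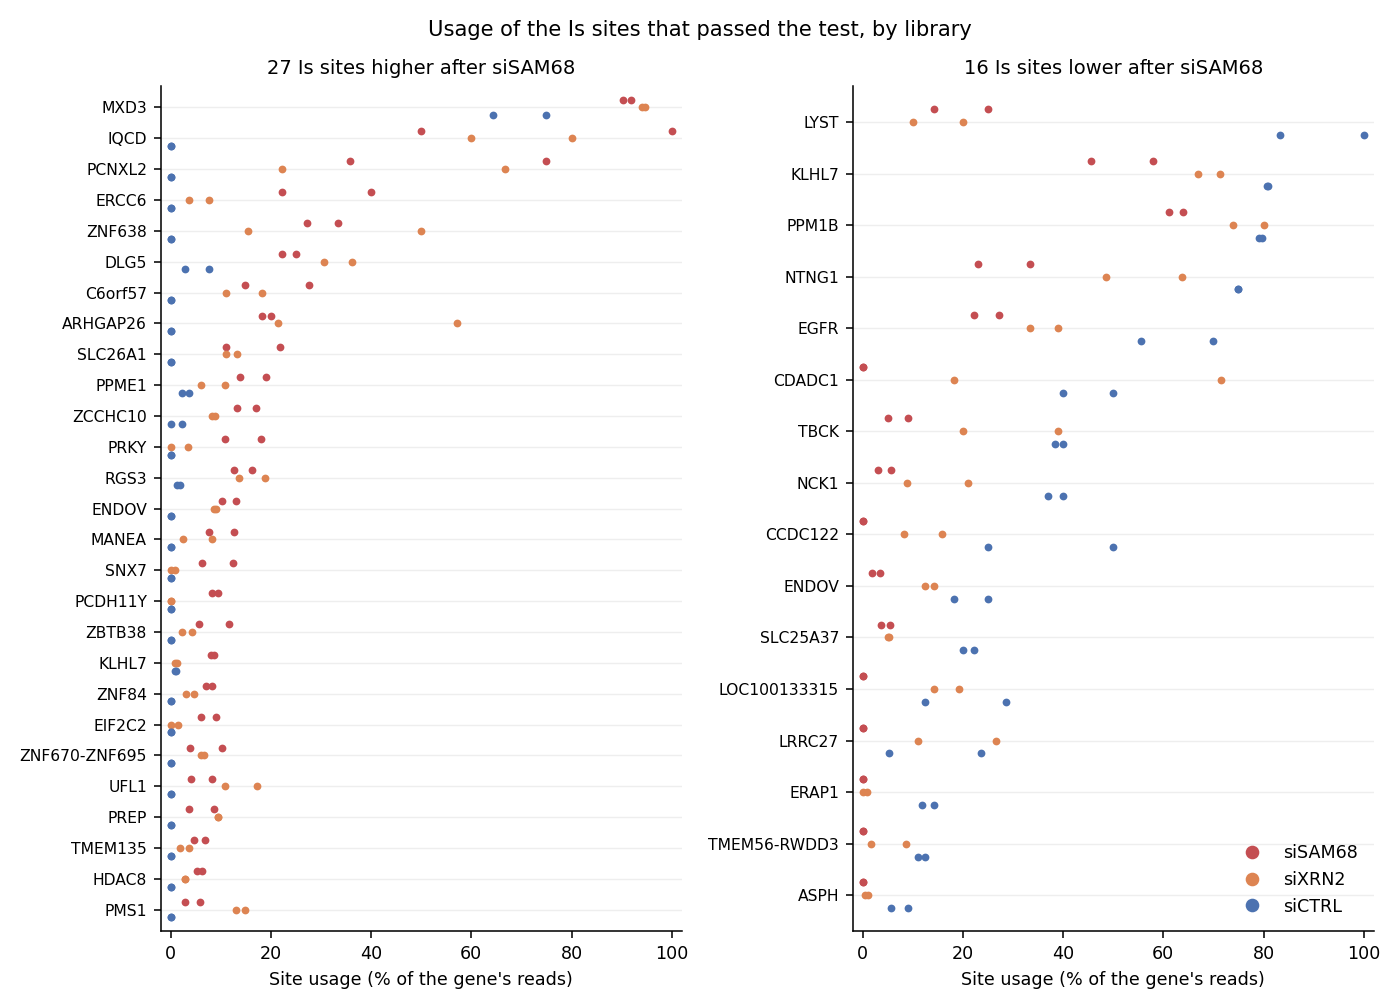
Points give the usage in each library (percent of the gene's reads) of the 27 Is sites higher after siSAM68 (left) and the 16 lower (right), with siSAM68, siXRN2 and siCTRL from top to bottom within a row. On the left 21 sites are at 0 in both siCTRL libraries, and on the right 7 are at 0 in both siSAM68 libraries.

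XRN2 silencing gave fewer calls. Of 245 Is sites tested, 15 in 15 genes passed (6.1%), 11 higher and 4 lower, where 5.21% of all 4858 tested sites did (3.81% higher and 1.4% lower). Of the 11 higher sites, 10 were at 0 in both siCTRL libraries, RGS3 being the other. The median change was -0.23, with 135 of 245 below 0, against -0.02 for all sites, -0.46 for Ic sites and 0.11 for L sites. Without siXRN2 replicate 2, the deepest library, the Is median was -0.03. Leaving out either siXRN2 library, or fitting only the compared groups, left 0 calls, and leaving out siCTRL replicate 1 left 1.

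The 10 largest rises after siXRN2 were in IQCD, PCNXL2, ARHGAP26, ZNF638, C6orf57, PMS1, UFL1, SLC26A1, PREP and ENDOV. ARHGAP26, a GTPase-activating protein, had 20.0% and 18.18% in siSAM68, 21.43% and 57.14% in siXRN2 and 0 in both siCTRL libraries (limma adjusted p = 0.0206 after siXRN2). UFL1, the ligase of the ubiquitin-like modifier UFM1, had 8.33% and 4.11% in siSAM68, 17.14% and 10.87% in siXRN2 and 0 in siCTRL (adjusted p = 0.0339). The siXRN2 values of UFL1 lay above those of siSAM68.

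The 4 falls after siXRN2 were in LYST, WDPCP, ERAP1 and ETV6. LYST, the lysosomal trafficking regulator mutated in Chediak-Higashi syndrome, had 14.29% and 25.0% in siSAM68, 10.0% and 20.0% in siXRN2 and 100% and 83.33% in siCTRL (log2 -2.60, SE 0.44, limma adjusted p = 0.0436 after siXRN2). WDPCP, a planar cell polarity effector, had 42.86% and 42.86% in siSAM68, 25.0% and 27.27% in siXRN2 and 75% and 57.14% in siCTRL (log2 -1.29, adjusted p = 0.0356). ETV6, an ETS-family repressor, was at 0 in both siXRN2 libraries, with 23.08% and 10.53% in siSAM68 and 14.29% and 20.0% in siCTRL (adjusted p = 0.0293). Only the siXRN2 libraries lacked reads there. LYST, WDPCP and ETV6 are not in the expression table, so the reads behind their percentages are not known and can be few. Both comparisons use the same siCTRL libraries, so their values for a site are not independent.

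Set directly against each other, siSAM68 and siXRN2 differed at no Is site by the limma threshold, 0 of 246 tested, where 0 of 4861 sites in the table passed (0.0%). At an unadjusted p under 0.05 there were 41 Is sites, and a fit without the mean-variance trend called 2. The 5 sites of lowest p were LOC100133315 (position 71581576), ETV6, CDADC1, CCDC122 and CSMD1, with limma adjusted p between 0.105 and 0.145. CSMD1, a large membrane protein with complement control domains, had 12.12% and 11.48% in siSAM68, 0% and 0.81% in siXRN2 and 7.69% and 4.65% in siCTRL. Its siSAM68 values were the highest and its siXRN2 values the lowest. A p that misses the threshold does not show that the knockdowns acted alike at these sites.

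**Figure D5:**
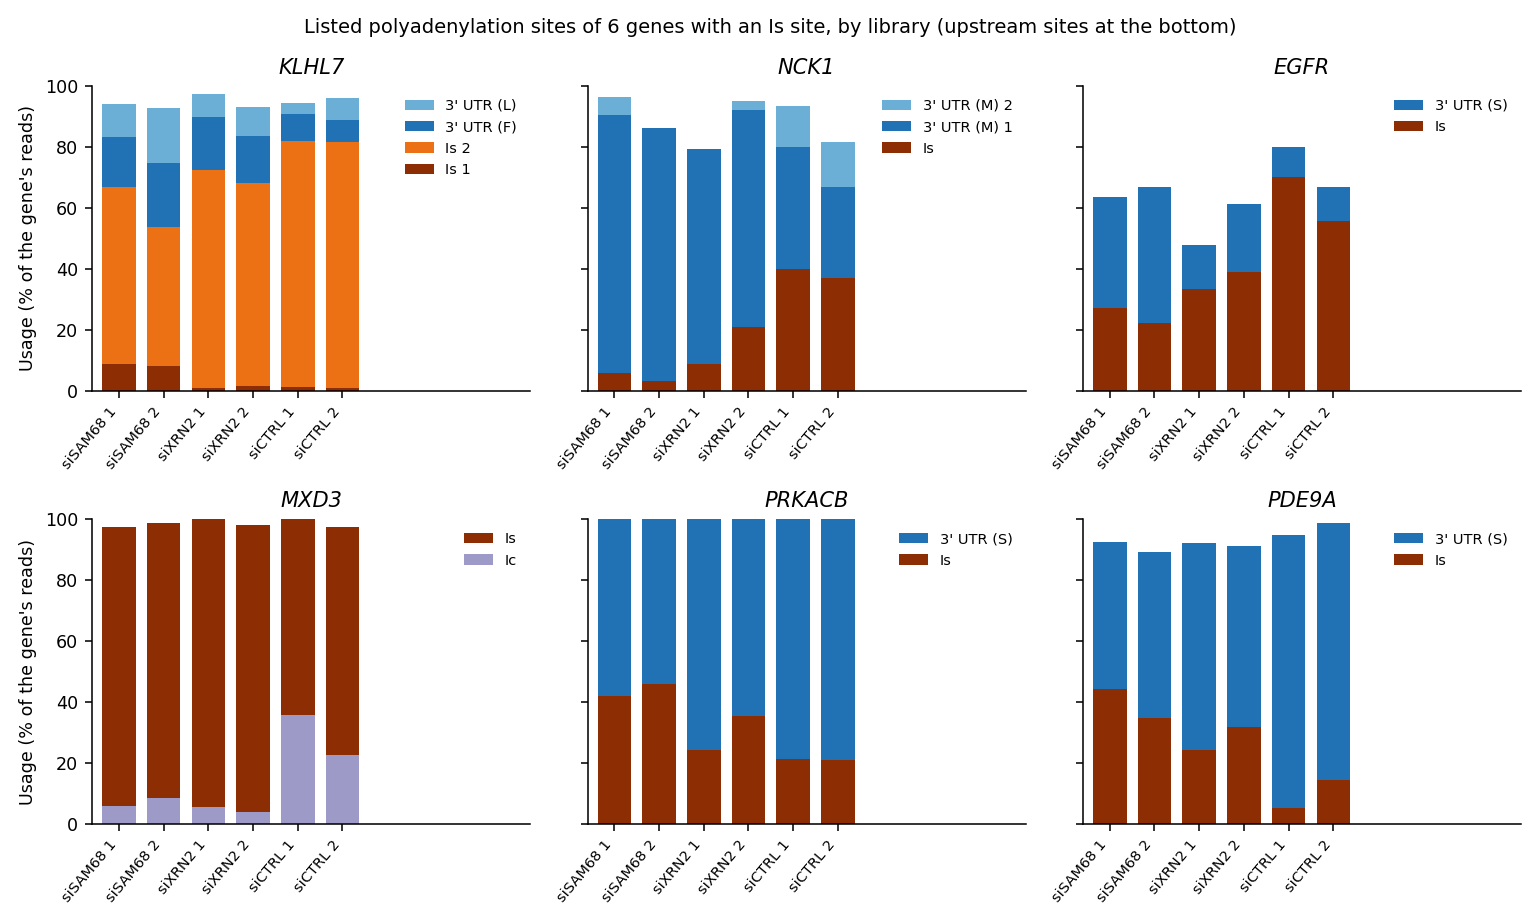
Stacked bars give the usage of every listed site of 6 genes with an Is site in each library, from siSAM68 on the left to siCTRL on the right, with upstream sites at the bottom. The Is share of KLHL7, NCK1 and EGFR was lower in siSAM68 than in siCTRL, and that of MXD3, PRKACB and PDE9A was higher, the last 2 without passing the test.

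By function, genes with an Is site are given out of the genes of each group that the site table lists, where 7.25% of all 3118 listed genes held one. None of 17 splicing and RNA-binding genes and none of 24 cell cycle genes did. Of 21 DNA repair genes 4 did, and the sites of ERCC6 and the mismatch repair gene PMS1 were higher after siSAM68, where 8.68% of all tested sites were. The siSAM68 call of ERCC6 held under 11 of 14 other settings and that of PMS1 under 3 of 14. PMS1 had 5.88% and 2.78% in siSAM68, 13.04% and 14.75% in siXRN2 and 0 in both siCTRL libraries, and it passed after siXRN2 too (limma adjusted p = 0.0463 after siSAM68 and 0.0310 after siXRN2). FANCA and FANCL, of the Fanconi anaemia pathway, did not pass. FANCA had 8.33% and 13.83% in siSAM68, 11.32% and 8.6% in siXRN2 and 25.93% and 17.65% in siCTRL. FANCL ranged from 0% to 50% over the 6 libraries.

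Of 25 receptor and kinase genes 3 held one, and EGFR alone passed, after siSAM68. PRKACB, a catalytic subunit of protein kinase A, had 41.87% and 45.88% in siSAM68, 24.28% and 35.27% in siXRN2 and 21.41% and 20.88% in siCTRL. The siSAM68 libraries were above all others, and the Is site missed the threshold (log2 1.02, SE 0.26, limma adjusted p = 0.0571). Its single 3' UTR site passed, with 58.13% and 54.12% in siSAM68 against 78.59% and 79.12% in siCTRL (adjusted p = 0.0432). No other site of PRKACB is listed, so usage there is what the Is site leaves and is not a second observation. The log2 scale treats the high and the low share differently.

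Of 16 androgen-response and prostate genes 3 held one, and none passed. PDE9A, a phosphodiesterase of cyclic GMP, had 44.12% and 34.78% in siSAM68, 24.36% and 31.76% in siXRN2 and 5.13% and 14.29% in siCTRL (log2 2.05, SE 0.51, limma adjusted p = 0.056 after siSAM68). All knockdown libraries lay above siCTRL, and its 3' UTR site fell to 48.53% and 54.35% in siSAM68, against 89.74% and 84.42% in siCTRL (adjusted p = 0.0258). AFF3 was at or under 7.5% in every library.

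WDR33, the subunit of the cleavage complex that binds AAUAAA, was the 1 gene of 11 in the cleavage, polyadenylation and termination group. Its Is site had 4.27% and 2.59% in siSAM68, 3.03% and 4.0% in siXRN2 and 16.13% and 8.16% in siCTRL. The knockdown libraries lay below siCTRL, but the difference missed the threshold (log2 -1.53, limma adjusted p = 0.0805 after siSAM68). Of 26 chromatin and Mediator genes NSD1 held one, with 7.21% and 4.68% in siSAM68, 5.16% and 1.99% in siXRN2 and 4.76% and 2.88% in siCTRL. In the ubiquitin group HERC4 and UBE3B (2 of 34 genes), and in the membrane trafficking group AP3B1, SEC24A, TRAPPC10 and VPS13A (4 of 24), held Is sites, and none passed in any comparison.

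Among the other sites with a printed sequence, PPP1R7, a regulatory subunit of protein phosphatase 1, had 40.28% and 49.61% in siSAM68, 34.89% and 32.15% in siXRN2 and 16.95% and 29.21% in siCTRL (limma adjusted p = 0.0769 after siSAM68). C3orf23 had 53.8% and 46.32% in siSAM68, 51.32% and 66.44% in siXRN2 and 82.46% and 68.1% in siCTRL (adjusted p = 0.072). The NME1 end listed for NME1-NME2, of a nucleoside diphosphate kinase, had 90.21% and 89.24% in siSAM68, 81.08% and 89.76% in siXRN2 and 70.37% and 79.8% in siCTRL (adjusted p = 0.0789). These 3 were chosen after their values were seen.

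At the extremes of usage in siCTRL, LINC00271, C1orf228, FAM149A, PART1 and LYST stood highest. None of these genes is in the expression table, so the reads behind their percentages are not known and can be few. LINC00271 had 33.33% and 16.67% in siSAM68, 57.14% and 21.43% in siXRN2 and 100% in both siCTRL libraries, and missed the threshold (limma adjusted p = 0.0618 after siSAM68). PART1, a prostate lncRNA, had 66.67% and 50.0% in siSAM68, 57.14% and 28.57% in siXRN2 and 100% and 87.5% in siCTRL. C1orf228 has no value in siXRN2 replicate 1, and FAM149A has none in siSAM68 replicate 1 and siCTRL replicate 1, so the fits of these sites dropped those libraries. At the low end, 42 sites were at 0 in both siCTRL libraries. The 5 of these tested sites with the lowest mean over all libraries, DCP1B, BTD, TBC1D22A, VTI1A and POLR1D, were between 0% and 8.33% elsewhere.

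The level of the host gene, measured in the same libraries and from the same reads that divide into site usage, was available for 33 of the 226 genes. After siSAM68, 13 of these 33 were higher and 4 lower by limma on log2(RPM + 1), where 58.8% of all 1938 genes tested were called. The median log2 change was 0.41 over the 33 and 0.16 over all genes, a shift that applies to the changes below. With RPM as deposited, not rescaled between the libraries of a group, 0 of the 33 passed in either comparison with siCTRL. MXD3 had 63.1 and 72.5 RPM in siSAM68, 42.6 and 80.5 RPM in siXRN2 and 19.5 and 33.4 RPM in siCTRL. Its level was higher in every knockdown library (log2 1.37 after siSAM68, limma adjusted p = 0.00641, and 1.17 after siXRN2, adjusted p = 0.0191). ERAP1 (1.09) and ASPH (0.99), whose Is sites fell to 0 after siSAM68, were also higher in level.

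KLHL7 had 77.4 and 61.0 RPM in siSAM68, 62.5 and 79.4 RPM in siXRN2 and 122 and 95.8 RPM in siCTRL, and its level was lower after siSAM68 (log2 -0.65, limma adjusted p = 0.0317). The other genes lower in level after siSAM68 were ZMIZ2 (-0.80), SETDB2 (-0.84) and MACROD1 (-0.75). After siXRN2, 6 of 33 were higher and 0 lower, where 33.3% of all genes were called. These were MXD3, SYNGR1, RUFY1, IFNAR2, PPP1R7 and CHURC1-FNTB, with log2 changes of 0.78 to 1.31. In the direct comparison 0 of 33 passed, where 0.155% of all genes did, and 3 of the 33 had an unadjusted p under 0.05. Whether a change of level and a change of Is usage in the same gene are linked was not tested.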

How the data were processed

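3'READS libraries of 6 LNCaP samples were analysed from 2 deposited tables. Per the submitters' processing notes, cutadapt, Bowtie2 and the hg19 build were used, without stated versions. The authors deposited site usage in percent per library. The authors' deposited RPM is scaled to both libraries of a group together, seen from its smallest step (0.238, 0.157 and 0.492 RPM for siSAM68, siXRN2 and siCTRL), which also gives the approximate reads per gene. The authors' deposited score, which no source here defines, was used only to describe selection. No other deposited value was used as a measurement.

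Usage was tested as log2(percent + 1) for sites with a mean of at least 1%, in limma 3.58.1 (R 4.3.3; empirical Bayes with trend, all 3 groups in 1 fit), with Benjamini-Hochberg adjustment over all sites. Of 249 Is sites, 246 passed that filter, and CLUL1, with no value in either siCTRL library, was tested only between the knockdowns. A fold change on this scale understates changes of low sites. Expression was tested as log2(RPM + 1), at a mean of at least 1 RPM, after each library was rescaled to its group's listed total. p-values measure the spread between 2 replicates per group. Scripts were tested on simulated data. Replicate numbers did not pair the samples. Sites were matched to GENCODE v29 by distance to a 3' UTR site of the same gene within 24 bases, without converting coordinates; matched ends on chromosome 8 were not read for sequence. Named sites were the 10 largest called rises and falls per comparison with siCTRL, the 5 highest and lowest in siCTRL (ties at 0 broken by the mean over all libraries), sites of listed gene groups and the 5 of lowest p between the knockdowns; others are marked. Members, gene lists and tests were chosen with earlier results of these data known. Figures were drawn with matplotlib 3.10.9. Some sites that the naming rule or the match takes are not reported here.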

Additional observations from a re-analysis of the deposited data

How the results depend on the processing

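No named or called Is site changed sign between the main fit and another setting where it passed in either. Of 2029 values, 1582 kept their side of the threshold, 425 lost the call and 22 gained it. The 1582 include values that passed in neither fit, so they do not measure how often a call was kept. Single calls were kept under 2 to 12 of at most 14 alternatives after siSAM68 and under 3 to 8 after siXRN2. Sign changes of sites that passed in neither fit were not counted. After siSAM68 the 43 calls became 24 (12 higher, 12 lower) with a mean usage of at least 5%, 34 (18 and 16) on the percent scale without a log, and 26 with only the 2 compared groups in the fit. A restriction to sites above 0 in a siCTRL library, added after seeing the data, left 22 (6 and 16), but it can remove only rises, so that split follows from its construction. After siXRN2 the 15 calls became 1 on the percent scale, 0 with only the 2 compared groups and 5 (1 and 4) with that restriction. Between the knockdowns, omitting the trend gave 2 calls. Leaving out 1 library gave 0 to 46 calls after siSAM68, 0 to 23 after siXRN2 and 0 between the knockdowns. After siSAM68 no call remained without either siSAM68 library, and 7 sites were called without siCTRL replicate 1, 6 of them among the 43. After siXRN2 no call remained without either siXRN2 library, and 1 site was called when siCTRL replicate 1 or either siSAM68 library was dropped. The cause was not tested, beyond the fewer samples these fits hold, in which a lone sample is assumed to vary like the other groups. CCDC122 and IQCD kept their siSAM68 calls under 12 of 14 alternatives, the most of any site, and LRRC27 under 2, the fewest. A replicate block left 6 Is calls after siSAM68 and 0 after siXRN2. The deviations of same-numbered samples correlated at 0.004 to 0.04 for usage and at 0.002 to 0.181 for expression, and not every pair was over 0.1, so the numbers were not taken to pair them. For host genes, RPM as deposited gave 0 calls in place of 17 after siSAM68 and 0 in place of 6 after siXRN2. Leaving out 1 library gave 3 to 18 after siSAM68, 2 to 9 after siXRN2 and 0 to 3 between the knockdowns. Only 33 of 226 genes have known depth, and siCTRL is the shallowest group.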
